A study of Mus musculus with 12 samples.

Results

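Hepcidin is the peptide hormone by which the liver limits the entry of iron into the blood. The genes described here are the 10 rows of a mouse RNA-seq count table that encode hepcidin and the proteins that set or obey its level, out of 56748 genes in the table. They were chosen by gene name: the hepcidin genes Hamp and Hamp2, the ligand Bmp6, the sensors and brakes of the pathway Hfe, Tfr2 and Tmprss6, the target genes Id1 and Smad7 of the same signal, the transferrin receptor Tfrc and the iron exporter Slc40a1. Hamp had the smallest p between the liver groups in an earlier look at these samples, which drew attention to the family, so all liver differences below are given as a description without a test. Values from cultured hepatocytes, which played no part in that ranking of Hamp, were tested. The 10 genes and the gene lists read below were chosen with earlier results of these data known. The p-values from the cultures are therefore not free of that choice.

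Hepcidin binds ferroportin, the product of Slc40a1 and the iron exporter of gut, macrophages and hepatocytes, and causes its loss from the cell surface. Its transcription in hepatocytes follows BMP6, which sinusoidal endothelial cells release when liver iron is high and which signals through SMAD proteins. HFE and transferrin receptor 2 sense iron-loaded transferrin and raise the signal, the protease encoded by Tmprss6 removes the co-receptor hemojuvelin and lowers it, and interleukin-6 raises Hamp separately through STAT3.

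Poly-A RNA was sequenced from 12 samples in 4 groups of 3. The 6 livers came from C57BL/6 mice on a high fat diet, with 60% of calories from fat for 8 weeks. In 3 of them ABHD6, a serine hydrolase that cleaves monoacylglycerols, was overexpressed from AAV8-TBG-ABHD6 given by tail vein, where TBG is a promoter active in hepatocytes; the other 3 were GFP controls of WT genotype, for which the vector is not stated. The other 6 samples were primary hepatocytes labelled as without treatment, 3 with siABHD6 and 3 with siScramble of WT genotype; no diet, donor or time in culture is stated for them. Age and sex of the mice are not stated. The labels call the samples biological replicates without saying that the hepatocyte samples were separate cultures, so a p-value there measures the spread of these samples alone and that spread may be technical.

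Libraries held 12295733 to 16234658 counts. Levels of single genes below are normalised CPM, that is counts scaled to a common library size with TMM factors over all 12 libraries. Sums over marker genes or acute-phase genes are instead CPM on library totals without TMM factors, so they are not on the scale of the single genes. Abhd6 moved with the labels, from 46.8 ± 13.0 CPM in GFP livers to 192 ± 52.8 CPM with overexpression, and from 26.4 ± 1.28 CPM in siScramble to 3.90 ± 0.143 CPM in siABHD6 hepatocytes (SD, n = 3 each). Livers GFP 3 and ABHD6 OE 1 stood apart from the other 4 livers. Their summed level of 21 acute-phase protein genes was 86046 and 52286 CPM, against 18394 to 20417 CPM in the others. The acute-phase gene Saa1 was at 8031 CPM in GFP 3 and at 2410 CPM in OE 1, and between 41.2 and 114 CPM in the other 4. The cultures held hepatocyte markers, with the 12 markers summing to 28979 to 30852 CPM against 87443 to 135559 CPM in livers.

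Mice carry hepcidin as a gene pair. Hamp (ENSMUSG00000050440; mm39 chromosome 7, 30641793 to 30643457, minus strand) and Hamp2 (ENSMUSG00000056978; mm39 chromosome 7, 30621797 to 30624106, minus strand) lie 17686 bases apart, and the transcripts Hamp-201 and Hamp2-201 are 94.63% identical over 410 aligned bases. The longest identical run of the transcripts is 87 bases, so reads inside such runs cannot be assigned to one gene by sequence, and how the authors' counting treated them is not given in the sources used here. The 250 bases before the start of each gene are shown because the pair differed in its values, as described further on. They are RefSeq sequences in build GRCm38.p6, both on the minus strand and written 5′ to 3′. Capitals mark the BMP-responsive element GGCGCC or the bases aligned with it, the STAT site TTCNNNGAA and a TATA-like ATAAAA.
Hamp, chr7:30944030-30944279: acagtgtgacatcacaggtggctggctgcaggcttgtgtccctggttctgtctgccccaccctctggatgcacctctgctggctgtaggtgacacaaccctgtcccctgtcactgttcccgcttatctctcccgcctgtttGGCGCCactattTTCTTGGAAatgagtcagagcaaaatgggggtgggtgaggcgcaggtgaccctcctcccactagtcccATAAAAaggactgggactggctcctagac
Hamp2, chr7:30924182-30924431: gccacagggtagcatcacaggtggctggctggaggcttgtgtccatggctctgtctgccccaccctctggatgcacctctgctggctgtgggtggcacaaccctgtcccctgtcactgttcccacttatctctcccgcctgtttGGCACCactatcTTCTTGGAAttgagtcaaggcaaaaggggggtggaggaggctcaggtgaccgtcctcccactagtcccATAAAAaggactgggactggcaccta

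The promoters are 91.9% identical over 247 aligned bases, with 20 substitutions and 6 gap bases. In Hamp the first base of GGCGCC lies at -109 from the start, that of the STAT site at -97 and that of ATAAAA at -29. Counted from 1 at the 5′ end of the printed Hamp stretch, Hamp2 differs inside GGCGCC by the substitution G145A, while the STAT site and ATAAAA are the same in both. Searched on both strands of 32841 mouse promoter stretches of 250 bases, GGCGCC occurred in 9.589%, TTCNNNGAA in 7.022% and ATAAAA in 16.98%. Of the 10 genes, 6 had a promoter entry (Hamp, Hamp2, Bmp6, Hfe, Tfr2 and Tfrc), and beside Hamp GGCGCC was found in that of Tfrc, at -89. These are matches of letters and say nothing of factor binding.

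The other genes lie apart from the pair and from each other (mm39). The ligand gene Bmp6 (ENSMUSG00000039004) spans 38529083 to 38684278 on the plus strand of chromosome 13, which also holds Hfe (ENSMUSG00000006611; 23886017 to 23894837, minus strand). Tfr2 (ENSMUSG00000029716) lies on chromosome 5 at 137568102 to 137585743, plus strand, and Tmprss6 (ENSMUSG00000016942) on chromosome 15 at 78323867 to 78352834, minus strand. Id1 (ENSMUSG00000042745) lies on chromosome 2 at 152578171 to 152579330, plus strand. The transport genes Tfrc (ENSMUSG00000022797; chromosome 16, 32427738 to 32451612, plus strand) and Slc40a1 (ENSMUSG00000025993; chromosome 1, 45947228 to 45965683, minus strand) overlap no other annotated gene of the table.

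The first comparison describes what accompanied ABHD6 overexpression in liver. Hamp was at 215, 249 and 283 CPM in the 3 GFP livers and at 660.2, 698 and 674 CPM in the 3 overexpressing livers. Every overexpressing liver lay above every GFP liver, and the values within a group lay close together. The group means were 249 ± 33.9 and 677 ± 19.0 CPM (SD, n = 3 each), a ratio of 2.72, and the fitted log2 fold change was 1.45 (SE 0.16). Across the table, edgeR called 0 of 13910 genes between the liver groups (0%) at an adjusted p under 0.05, where 301 genes had an unadjusted p under 0.05 and DESeq2 called 10. Groups free of overlap were found for 6.75% of the tested genes, and among the 10 genes described here for Hamp alone.

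Hamp did not separate the acute-phase livers from the others. GFP 3, with the most Saa1 of all livers, had the highest Hamp of its group (283 CPM), and OE 1 had the lowest Hamp of its group. Without both livers the log2 fold change of Hamp was 1.57, and leaving out each liver in turn gave 1.36 to 1.55. Interleukin-6 signalling raises acute-phase genes and hepcidin alike, and its part in the liver values of Hamp was not tested.

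Hamp2 differed from Hamp. It was at 21.4, 44.7 and 1.98 CPM in GFP livers 1 to 3 and at 1.31, 19.4 and 22.4 CPM in overexpressing livers 1 to 3. The low values were those of GFP 3 and OE 1, the livers with high acute-phase genes, and the groups overlapped. The log2 fold change of -0.66 had an SE of 1.10, and leaving out each liver in turn gave -1.20 to 0.29, with 0.29 without GFP 2. The ratio of the Hamp2 count to the Hamp count was 9.92%, 17.99% and 0.699% in GFP livers and 0.198%, 2.79% and 3.33% in overexpressing livers.

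**Figure D1:**
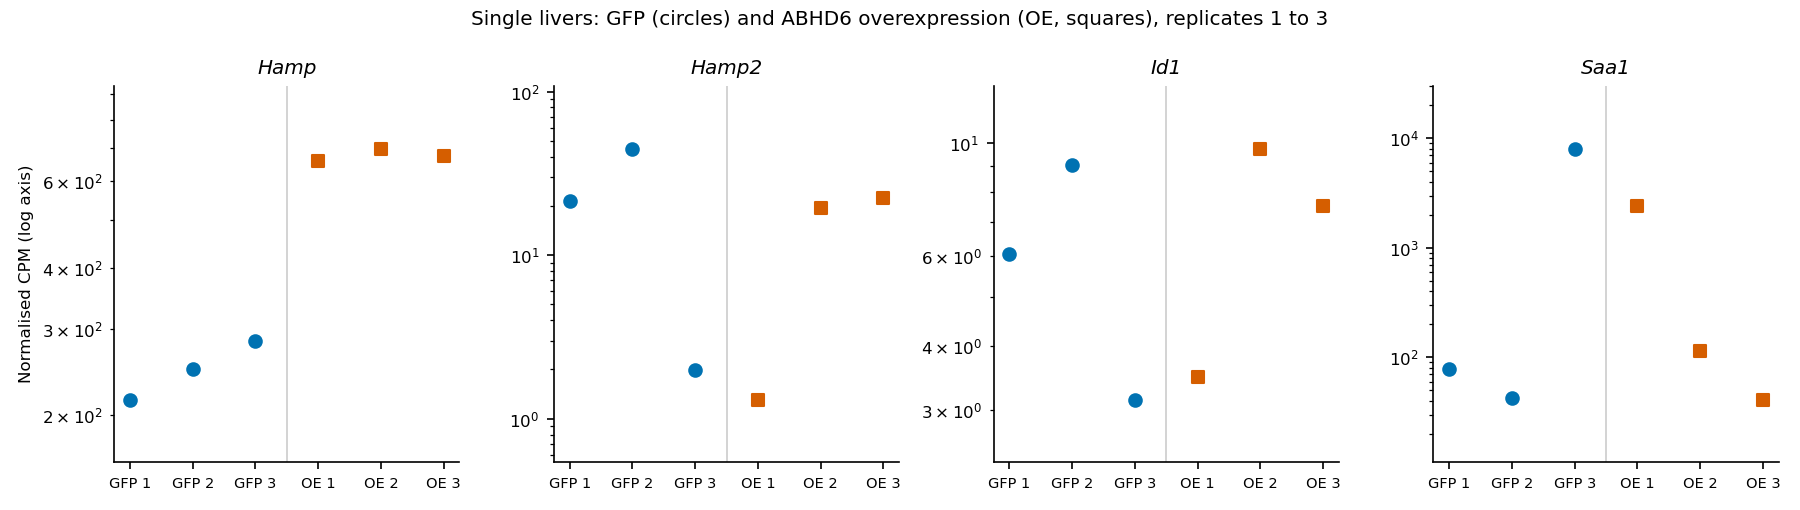
Normalised CPM (log axis) of Hamp, Hamp2, the BMP target Id1 and the acute-phase gene Saa1 in each liver, GFP as circles and ABHD6 overexpression as squares. Hamp separated the groups, at 215 to 283 against 660.2 to 698 CPM, whereas Hamp2 and Id1 were lowest in GFP 3 and OE 1, the livers with Saa1 at 8031 and 2410 CPM.

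Of the genes upstream of Hamp, Bmp6 encodes the main ligand. It was at 3.08, 5.19 and 2.25 CPM in GFP livers and at 6.62, 5.05 and 5.10 CPM in overexpressing livers. The groups overlapped through GFP 2, and the log2 fold change was 0.67 (SE 0.35), or 0.30 without both acute-phase livers and 1.07 without GFP 2. The sensor gene Hfe (64.8, 60.1 and 46.3 against 65.7, 70.1 and 54.6 CPM) had a log2 fold change of 0.16 (SE 0.16). Tfr2, the second transferrin receptor, was at 536, 517 and 897 CPM with GFP and at 908, 516 and 628 CPM with overexpression. Its highest values were in GFP 3 and OE 1, and its log2 fold change was 0.08 (SE 0.30), which turned negative without OE 1 (-0.18), GFP 1 or GFP 2. The brake Tmprss6 was the steadiest of the set between livers, at 662 to 731 CPM with GFP and 585 to 699 CPM with overexpression (log2 fold change -0.07, SE 0.16; 0.0066 without OE 2).

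The transcripts that report BMP and SMAD signalling did not separate the groups. Id1, a target of the same signal as Hamp that encodes an inhibitor of DNA binding, was at 6.07, 9.04 and 3.15 CPM in GFP livers and at 3.48, 9.72 and 7.51 CPM in overexpressing livers. Its low values were again those of GFP 3 and OE 1, and the log2 fold change was 0.18 (SE 0.48). Smad7, which encodes an inhibitory SMAD induced by the signal, was at 20.03, 16.5 and 8.99 against 12.6, 15.6 and 14.8 CPM (log2 fold change -0.08, SE 0.29). The direction rested on single livers: Id1 was at -0.15 without OE 2 and also negative without GFP 3, and Smad7 was at 0.18 without GFP 1 and also positive without OE 1.

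On the side of iron transport, Tfrc, the receptor by which cells take up transferrin iron, was at 45.9, 47.7 and 24.7 CPM in GFP livers. It was at 24.0, 24.1 and 29.8 CPM in overexpressing livers. GFP 3 lay among the overexpressing livers and the other 2 GFP livers above them all (log2 fold change -0.60, SE 0.25; -0.79 without both acute-phase livers). Slc40a1, which encodes ferroportin, was at 179, 165 and 126 CPM with GFP and at 172, 284 and 170 CPM with overexpression. Overexpressing liver 2 was the high one, and the log2 fold change of 0.41 (SE 0.24) was 0.13 without that liver. In bulk liver, fewer cells of a type and less RNA per cell cannot be told apart. Kupffer cells, which hold much Slc40a1, had 12 markers summing to 280 to 446 CPM in GFP livers and to 237 to 561 CPM in overexpressing livers. Sinusoidal endothelial cells, a source of Bmp6, had 12 markers summing to 243 to 385 and 285 to 366 CPM. The part of these cells in the liver values was not tested.

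**Figure D2:**
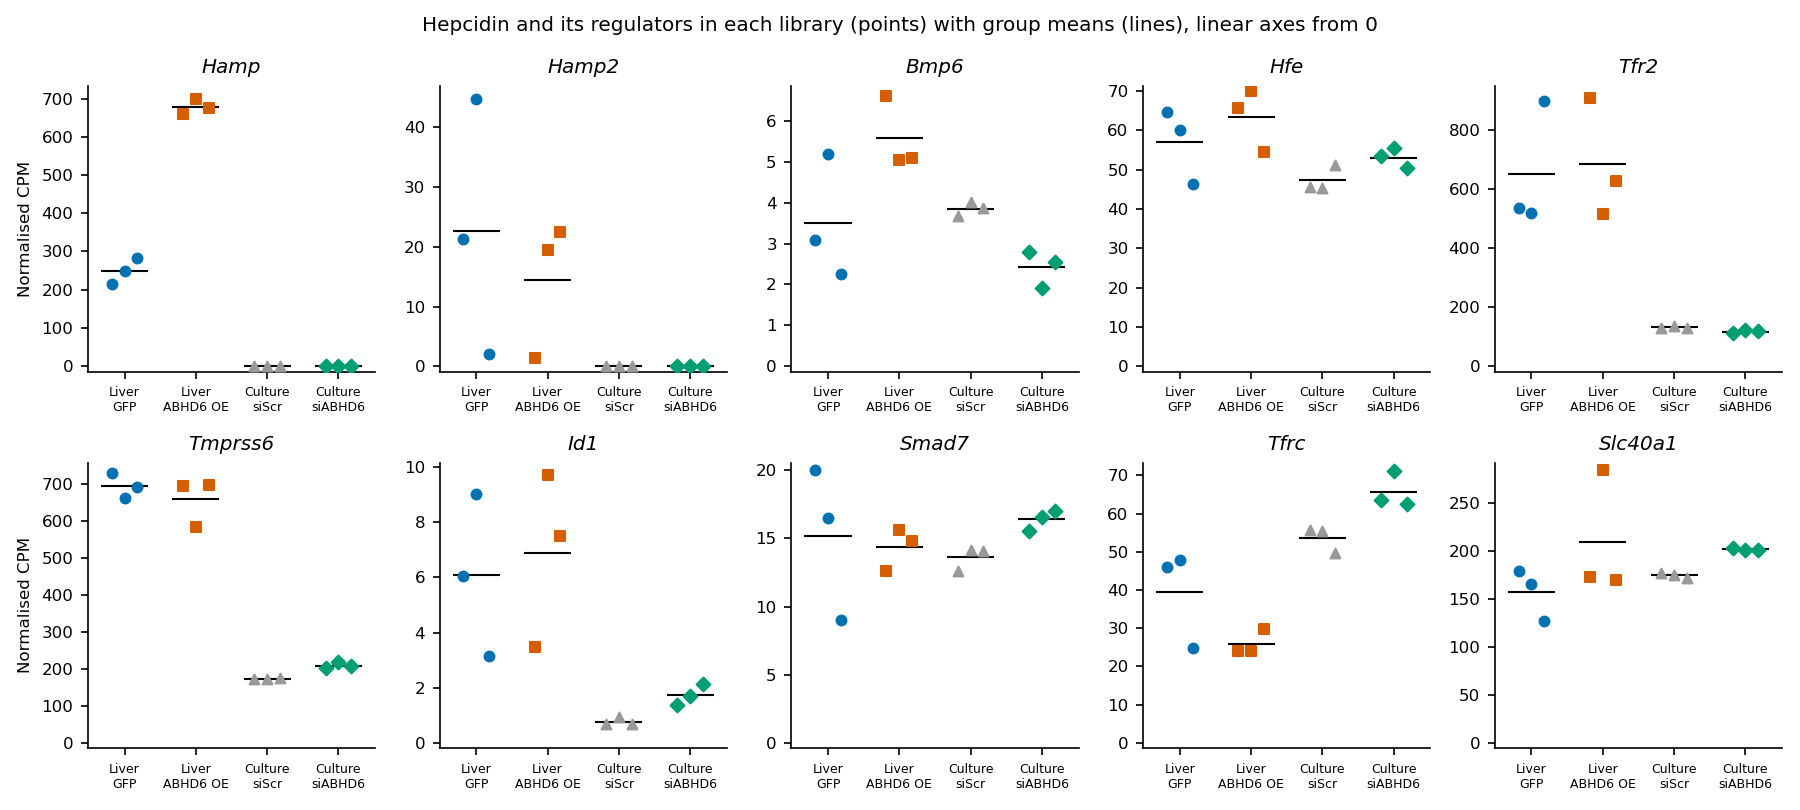
Normalised CPM (linear axes from 0) of the 10 genes in each library (points) with the mean of each group of 3 (lines). Hamp separated overexpressing from GFP livers, at means of 677 and 249 CPM, and Hamp, Hamp2, Tfr2, Tmprss6 and Id1 were lower in cultures than in livers.

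The second comparison asked whether Abhd6 knockdown changed the same genes in hepatocytes. Tmprss6, Id1, Tfrc and Slc40a1 rose and Bmp6 and Tfr2 fell. These were 6 of the 8 genes that passed the filter on low counts, while Hamp and Hamp2 were below it, and edgeR called 15.4% of the 13449 genes tested. Changes other than those of Id1 and Bmp6 were small, from 0.879 to 1.21 times the control level, where all genes called had a median log2 fold change of 0.27 in size. For 7 of the 8 genes the groups were free of overlap, as they were for 31.2% of all tested genes. Median log2 fold changes were 0.22 for the 8 genes and -0.0024 for all genes.

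Hamp itself was nearly absent from the cultures. It was at 0.451, 0.111 and 0.245 CPM in siScramble and at 0.434, 1.01 and 0.785 CPM in siABHD6 hepatocytes, from 2 to 8 and from 7 to 19 counts per library. The groups overlapped by a narrow margin. Pooled, 14 counts gave 0.269 CPM (95% exact Poisson interval 0.147 to 0.452) in siScramble and 39 counts gave 0.759 CPM (0.539 to 1.04) in siABHD6 cultures. These intervals cover counting error only. Hamp2 had 0 counts in all 6 cultures. The same interval for these 0 counts reached up to 0.0709 CPM over the 3 siScramble libraries and 0.0717 CPM over the 3 siABHD6 libraries. A pooled total of 3 counts would give 0.0577 and 0.0583 CPM.

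The hepcidin brake rose with knockdown. Tmprss6 went from 172, 172 and 175 CPM to 202, 219 and 207 CPM, with no overlap (log2 fold change 0.26, SE 0.04; edgeR adjusted p = 7.73e-05). The sensor Tfr2 went the other way, from 131, 135 and 129 to 111, 121 and 119 CPM (log2 fold change -0.19, SE 0.04; edgeR adjusted p = 0.00396). Here too every knockdown culture lay on the same side of every control culture. The other sensor, Hfe, was at 45.6, 45.3 and 51.3 CPM in siScramble and 53.4, 55.5 and 50.4 CPM in siABHD6 cultures. Its groups overlapped and it did not pass the threshold (log2 fold change 0.15, SE 0.06; edgeR adjusted p = 0.0767), which it did without siScramble 3 (log2 fold change 0.21, adjusted p = 0.0214).

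The SMAD target Id1 had the largest fitted change of the 8. It was at 0.677, 0.946 and 0.674 CPM in siScramble and at 1.36, 1.71 and 2.11 CPM in siABHD6 cultures. The groups did not overlap, at 11 to 17 against 22 to 35 counts per library, and the log2 fold change was 1.15 (SE 0.32; edgeR adjusted p = 0.0189). The call was lost without siABHD6 3 (log2 fold change 0.98, adjusted p = 0.103), siScramble 1 (1.07, adjusted p = 0.0807) or siScramble 3 (1.07, adjusted p = 0.0761). DESeq2 gave Id1 no adjusted p, so it did not call the gene. Smad7, the other target, was at 12.6, 14.1 and 14.1 against 15.6, 16.6 and 17.03 CPM. All knockdown cultures lay above all controls, and the difference did not pass the threshold (log2 fold change 0.25, SE 0.09; edgeR adjusted p = 0.0682).

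The ligand gene Bmp6 was at 3.67, 4.01 and 3.86 CPM in siScramble and at 2.79, 1.92 and 2.54 CPM in siABHD6 cultures, from 63 to 72 and 36 to 45 counts. The groups did not overlap and the fall passed the threshold (log2 fold change -0.69, SE 0.20; edgeR adjusted p = 0.0254). It missed it without siABHD6 2 (-0.54, adjusted p = 0.107), siScramble 1 (-0.72, adjusted p = 0.0549), siScramble 2 (-0.67, adjusted p = 0.0844) or siScramble 3 (-0.69, adjusted p = 0.0683), and in DESeq2 (adjusted p = 0.0939). In mm39 Bmp6 overlaps Txndc5, a more abundant gene on the opposite strand that encodes a protein disulfide isomerase of the endoplasmic reticulum, by 224 bases. Whether the counting used strand is not given in the sources used here, so reads of that stretch cannot be assigned with certainty. Txndc5, named after its values were seen, fell by 0.68 on the log2 scale in the same cultures (SE 0.04; edgeR adjusted p = 7.59e-10). The Bmp6 count was 2.14%, 2.27% and 2.34% of the Txndc5 count in siScramble and 2.67%, 1.78% and 2.28% in siABHD6 cultures, so this ratio overlapped between the groups. In livers the ratio was 1.19%, 2.07% and 0.831% with GFP and 2.63%, 1.961% and 1.85% with overexpression, and Txndc5 had a log2 fold change of 0.01 (SE 0.12). The part of Txndc5 reads in the Bmp6 values was not tested.

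**Figure D3:**
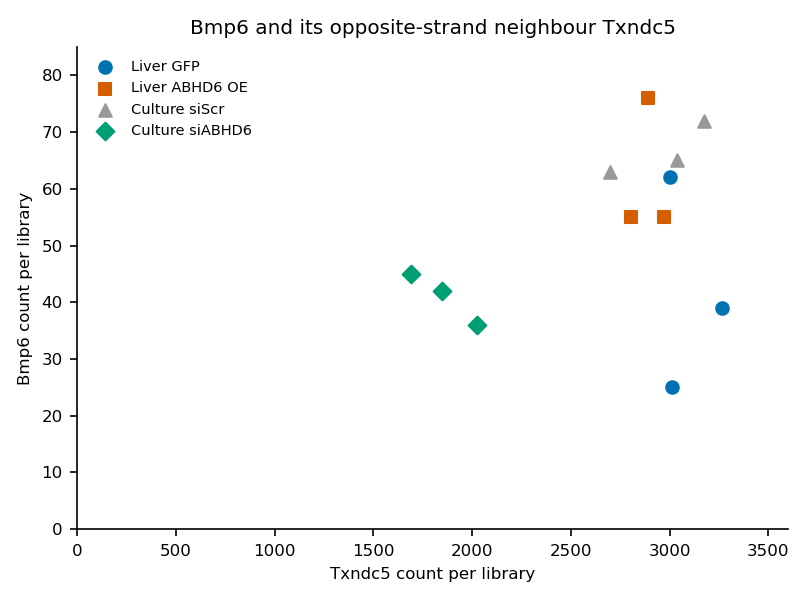
Bmp6 count against the count of its opposite-strand neighbour Txndc5 in each library (linear axes from 0). The 3 siABHD6 cultures had fewer counts of both genes, and in the 6 livers Bmp6 ran from 25 to 76 counts while Txndc5 ran from 2804 to 3265.

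Iron uptake and export genes both rose with knockdown. Tfrc went from 55.8, 55.4 and 49.7 CPM to 63.6, 71.0 and 62.5 CPM (log2 fold change 0.28, SE 0.06; edgeR adjusted p = 0.00155). Slc40a1 went from 176, 175 and 171 to 202.9, 201.04 and 200.91 CPM (log2 fold change 0.19, SE 0.04; edgeR adjusted p = 0.000758). Neither gene's groups overlapped. The mRNAs of both carry iron-responsive elements, hairpins bound by the iron regulatory proteins IRP1 and IRP2 when iron is scarce. Bound in a 3′ UTR, as in Tfrc, they protect the mRNA from decay; bound in a 5′ UTR, as in Slc40a1 and the ferritins, they block translation. A search of GENCODE M21 transcripts (GRCm38) for CNNNNNCAGTGN followed by bases that close a stem of 5 pairs, 17 bases in all, found the hairpins below, with the loop in capitals.
Slc40a1 5′ UTR, chr1:45925471-45925487, minus strand: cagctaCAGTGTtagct
Tfrc 3′ UTR, chr16:32631225-32631241, plus strand: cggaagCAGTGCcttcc
Tfrc 3′ UTR, chr16:32631604-32631620, plus strand: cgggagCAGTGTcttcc
Tfrc 3′ UTR, chr16:32631669-32631685, plus strand: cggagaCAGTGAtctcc
Tfrc 3′ UTR, chr16:32631716-32631732, plus strand: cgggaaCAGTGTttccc

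The pattern was found in the UTRs of no other gene of the 10. It occurred in the 5′ UTR of 31 of 20642 genes (0.15%) and in the 3′ UTR of 144 of 21062 genes (0.684%). The ferritin genes Ftl1 and Fth1 also held it in their 5′ UTR. In the knockdown cultures Ftl1, the ferritin light chain, rose with a log2 fold change of 0.33 (SE 0.03; edgeR adjusted p = 1.91e-07). Ireb2, which encodes IRP2, rose by 0.23 on the log2 scale (SE 0.04; edgeR adjusted p = 0.000318). In livers Tfrc and Slc40a1 had log2 fold changes of -0.60 and 0.41, given above.

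The wider iron network in the knockdown cultures was read from 5 lists, none of which holds the 10 genes. The shares called below stand against 15.4% called over all genes. Of all list genes named for the knockdown cultures, here, above and in the next paragraphs, Iscu alone kept its call in the fit over all 12 libraries. There the edgeR adjusted p of the others was 0.401 or higher. Of 24 tested genes of iron uptake, storage and export, 10 rose and 1 fell, with a median log2 fold change of 0.08 against -0.0024 over all genes. The largest changes were of Hp, encoding the haemoglobin scavenger haptoglobin (0.49, SE 0.03), Hmox1, encoding haem oxygenase 1 (0.43, SE 0.05), the metalloreductase gene Steap2 (0.34, SE 0.07) and Ftl1, each with an edgeR adjusted p of 0.00198 or lower. Of 20 tested genes of the iron regulatory proteins and iron-sulfur assembly, 2 rose (Ireb2, and Alas1, the first enzyme of haem synthesis, at 0.28, SE 0.04) and 2 fell. Iscu, the scaffold of iron-sulfur cluster assembly, fell from 40.2 ± 2.54 to 8.59 ± 0.734 CPM (SD, n = 3 each; log2 fold change -2.24, SE 0.08; edgeR adjusted p = 3.14e-13), and the chaperone gene Hspa9 fell by 0.21 (SE 0.03).

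Of 25 tested genes of BMP and SMAD signalling, 3 rose and 5 fell, with a median log2 fold change of 0.08. Bmp2, another ligand of the pathway, fell by 1.18 on the log2 scale (SE 0.33; edgeR adjusted p = 0.0173), from 2.26 ± 0.782 to 0.994 ± 0.366 CPM (SD, n = 3 each). The call was lost without siABHD6 3 (adjusted p = 0.0724) or siScramble 1 (-0.86, adjusted p = 0.150). Id2, a relative of Id1, rose by 0.50 (SE 0.16; edgeR adjusted p = 0.0457), and this call was lost in DESeq2 (adjusted p = 0.132) and without any of 4 cultures (siABHD6 2 or 3, siScramble 2 or 3), down to 0.33 and an adjusted p of 0.232 without siScramble 2. Hjv, encoding the co-receptor hemojuvelin that the Tmprss6 protease cleaves, rose by 0.25 (SE 0.06; edgeR adjusted p = 0.00919), a call lost without siABHD6 3 (adjusted p = 0.0569) or siScramble 1 (adjusted p = 0.0545). Fgl1, whose product opposes BMP-driven hepcidin expression, rose by 0.24 (SE 0.05; edgeR adjusted p = 0.00225).

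In the pathway of interleukin-6, 3 of 13 tested genes rose and 0 fell, where 15.4% of all genes were called, and the median log2 fold change was 0.08. Stat3, the transcription factor that acts on the Hamp promoter, rose by 0.18 (SE 0.04; edgeR adjusted p = 0.00297). The oncostatin M receptor gene Osmr (0.28, SE 0.08) and the transcription factor gene Cebpb (0.21, SE 0.07) passed at edgeR adjusted p-values of 0.0211 and 0.0447. Each lost its call in DESeq2 (adjusted p = 0.077 and 0.114) and without any of 4 single cultures, namely siABHD6 2 or 3 and siScramble 2 or 3 for Osmr (adjusted p up to 0.0944), and siABHD6 1 or 2 and siScramble 1 or 2 for Cebpb (up to 0.238). Among 21 acute-phase genes 10 rose and 3 fell, with a median of 0.18. Hp, given above with the iron uptake genes, is in both lists and counts among the genes that rose in each. Steap4, a metalloreductase gene, fell by 0.86 (SE 0.06; edgeR adjusted p = 6.55e-09) and the fibrinogen gene Fgb rose by 0.41 (SE 0.04; edgeR adjusted p = 1.83e-07). Apcs, encoding serum amyloid P, fell by 0.71 (SE 0.22; edgeR adjusted p = 0.0291), a call lost in DESeq2 (adjusted p = 0.0794) and without siABHD6 1 (-0.55, adjusted p = 0.116), siScramble 1 (adjusted p = 0.128) or siScramble 3 (adjusted p = 0.124).

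None of the calls of the 10 genes in the knockdown cultures held in a fit over all 12 libraries. There the livers' larger spread enters the estimate and edgeR called 41 of 15244 genes. DESeq2 called 4 of them, Tmprss6, Tfr2, Tfrc and Slc40a1.

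In livers no gene of the 5 lists was called. The median log2 fold change was -0.58 for the 21 acute-phase genes and between -0.06 and 0.04 for the other lists, against -0.0057 over all genes, and the summed acute-phase level was highest in livers GFP 3 and OE 1, as given above. Groups were free of overlap for 2 genes of all lists, where 6.75% of all tested genes had such groups. Both were among the 14 tested genes of interleukin-6 signalling. Cebpb was at 80.7 ± 6.11 CPM with GFP and 115 ± 20.7 CPM with overexpression, and Tyk2, a kinase upstream of STAT3, at 44.3 ± 3.77 and 37.5 ± 1.74 CPM (SD, n = 3 each). Of the BMP and SMAD list, 0 of 28 tested genes had groups that did not overlap.

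**Figure D4:**
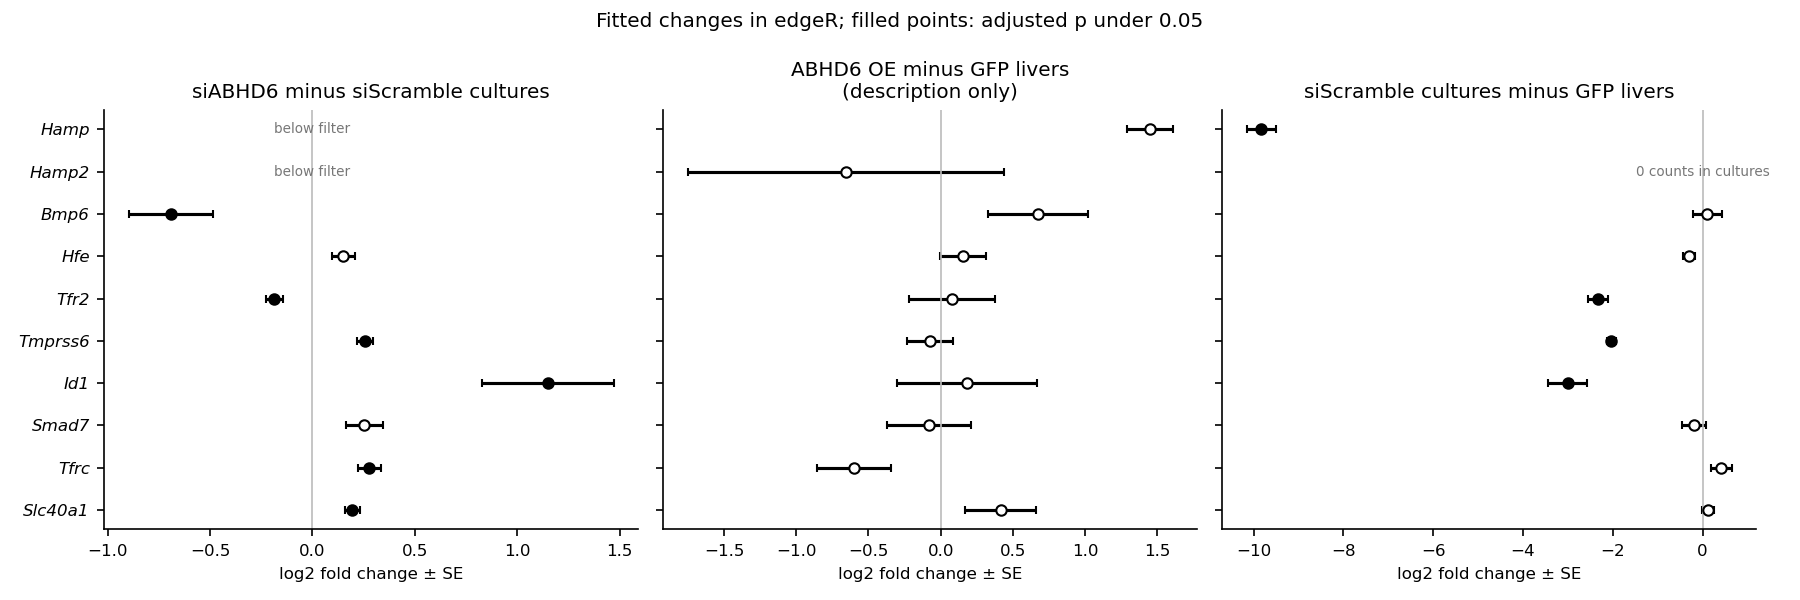
Fitted log2 fold change ± SE of each gene for siABHD6 minus siScramble cultures, ABHD6 overexpressing minus GFP livers and siScramble cultures minus GFP livers, with filled points where the edgeR adjusted p was under 0.05 (for Hamp in culture against liver the call has no weight, since it passed the filter through the livers). Hamp had the largest difference between livers (1.45, no test), Id1 and Bmp6 the largest between cultures (1.15 and -0.69), and 4 genes drawn on the right-hand axis were far lower in culture.

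The third comparison set control cultures against control livers. It shares the siScramble libraries with the knockdown comparison and the GFP livers with the overexpression comparison. Culture, diet, the GFP control with its unstated vector, siScramble and cell mixture differ together in it and cannot be told apart. Tfr2, Tmprss6 and Id1 were lower in the cultures. So were Hamp and Hamp2, which passed the filter on low counts only through the livers and therefore had to differ, so that their values are given without a test. With them edgeR called 5 of the 10 genes, all as lower, and 70.3% of the 14215 genes tested. Markers of several other cell types, summed as CPM on library totals without TMM, were lower in the cultures. The 10 stellate cell markers were at 2.78 to 7.06 CPM in all, against 127 to 499 CPM in livers. The 12 endothelial markers were at 33.2 to 36.4 against 243 to 385 CPM. The Kupffer cell marker Clec4f had 0 to 4 counts per culture, while the 12 markers of Kupffer cells and macrophages summed to 68.4 to 89.3 CPM, against 237 to 561 CPM in livers. The 6 cholangiocyte markers summed to 676 to 890 CPM in cultures, against 45.0 to 73.2 CPM in livers. In each culture 1 or 2 of them had 0 counts, so the sum does not speak for each marker.

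Hamp had the greatest loss that could be given as a value, with a GFP liver mean of 249 ± 33.9 CPM that was 925-fold the pooled siScramble level of 0.269 CPM (log2 fold change -9.83, SE 0.32). Hamp2 was in GFP livers at least 393-fold higher than the level that 3 counts in the pooled siScramble libraries would give. That bound rests on 22.7 ± 21.4 CPM in GFP livers (SD, n = 3), with 44.7 CPM in GFP 2 and 1.98 CPM in GFP 3, and was 202-fold without GFP 2 and 573-fold without GFP 3. The SMAD target Id1 went from 6.09 ± 2.95 to 0.766 ± 0.156 CPM (SD, n = 3 each; log2 fold change -3.003, SE 0.44; edgeR adjusted p = 0.000734). Tfr2 went from 650.3 ± 214 to 132 ± 2.94 CPM (log2 fold change -2.33, SE 0.23; edgeR adjusted p = 0.000105). Tmprss6 went from 695 ± 34.8 to 173 ± 1.39 CPM (log2 fold change -2.03, SE 0.10; edgeR adjusted p = 4.57e-06). Over the same libraries the hepatocyte product Alb went from 92263 ± 19670.1 to 9068 ± 68.1 CPM.

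The other 5 genes did not pass the threshold with TMM scaling. Bmp6 was at 3.50 ± 1.52 CPM in GFP livers and 3.85 ± 0.171 CPM in siScramble cultures (log2 fold change 0.11, SE 0.32; edgeR adjusted p = 0.782). Hfe (-0.30, SE 0.13), Smad7 (-0.18, SE 0.27), Tfrc (0.42, SE 0.23) and Slc40a1 (0.13, SE 0.14) did not pass either, with edgeR adjusted p-values of 0.0865, 0.565, 0.150 and 0.439. The cultures lay above all 3 GFP livers for Tfrc. Without GFP 3, Hfe (-0.41, adjusted p = 0.00104) and Smad7 (-0.44, adjusted p = 0.00996) passed as lower in culture. Scaling by library totals in place of TMM moved the median of all genes from -0.03 to 0.80, and turned Hfe (0.52, adjusted p = 0.0269) and Smad7 (0.62, adjusted p = 0.101) to higher in culture. With those totals Bmp6 (0.91, adjusted p = 0.0466), Tfrc (1.22, adjusted p = 0.00504) and Slc40a1 (0.94, adjusted p = 0.00208) also passed as higher. In all, 9 of the 10 genes were called, where 11311 of all 14215 genes tested were called. Tfr2 (-1.48), Tmprss6 (-1.20) and Id1 (-2.21) stayed called as lower, and Hamp was at -9.01.

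The list counts stand against 70.3% called over all genes. Of the lists, 15 of 29 tested BMP and SMAD genes were lower and 8 higher in culture, and 11 of 25 tested genes of iron uptake, storage and export were lower and 3 higher. Bmp5, a ligand, was at 5.04 ± 2.29 CPM in GFP livers with 0 counts in cultures. Erfe, which encodes the hepcidin-lowering hormone erythroferrone, had 0 counts in the GFP livers and 1.10 ± 0.173 CPM in cultures. The haptoglobin receptor gene Cd163, a macrophage gene, was at 19.1 ± 6.56 CPM in GFP livers with 0 counts in cultures. Bmp5, Erfe and Cd163 passed the filter on low counts only through the group that had counts and therefore had to differ. Their values are given without a test, and their calls, included in the list counts, have no weight. Hmox1 was 2.39 higher on the log2 scale (SE 0.22) and the iron importer gene Slc39a14 fell by 2.07 (SE 0.23). Of 20 tested iron-sulfur and regulatory protein genes 12 were lower and 1 higher, led by Alas1 (-3.37, SE 0.13), Cisd1 (-2.99, SE 0.24) and Iscu (-1.15, SE 0.11), which was at -0.33 and not called with library totals (adjusted p = 0.0617).

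Of 13 tested genes of interleukin-6 signalling 5 were lower and 3 higher, with the receptor genes Lifr (-3.74, SE 0.66) and Il6ra (-2.92, SE 0.19) and the transcription factor gene Cebpd (-2.08, SE 0.23) leading. Of 21 acute-phase genes 14 were lower and 0 higher, led by Serpina3m (-6.67, SE 0.23), Apcs (-6.33, SE 1.07) and Fgg (-5.91, SE 0.63). Apart from Bmp5, Erfe and Cd163, all of these named differences had edgeR adjusted p-values of 0.00177 or lower. The liver levels of several of them vary with GFP 3, and Lifr was at 349 ± 329 CPM in GFP livers.

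Levels between genes were compared as normalised CPM per kilobase of the gene length in the deposited table. In GFP livers the level per kilobase fell in the order Hamp (607 ± 82.6), Tmprss6 (207 ± 10.4), Tfr2 (149.99 ± 49.4), Hamp2 (38.9 ± 36.7), Slc40a1 (17.4 ± 3.05), Hfe (15.98 ± 2.69), Tfrc (6.38 ± 2.07), Id1 (5.25 ± 2.54), Smad7 (3.36 ± 1.25) and Bmp6 (0.899 ± 0.389; SD, n = 3 each). Hamp stood above the rest in each GFP liver. Tmprss6 and Tfr2 overlapped through GFP 3, Hamp2, at 3.39 per kilobase in GFP 3 and 76.7 in GFP 2, overlapped every gene from Slc40a1 to Smad7. Slc40a1 and Hfe differed by less than their spread, and so did Tfrc and Id1, and Id1 and Smad7. With overexpression Hamp reached 1652 ± 46.4 CPM per kilobase and Tfr2 and Tmprss6 again overlapped.

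In siScramble cultures the order per kilobase was Tmprss6 (51.5 ± 0.413), Tfr2 (30.4 ± 0.679), Slc40a1 (19.4 ± 0.287), Hfe (13.3 ± 0.942), Tfrc (8.67 ± 0.559), Smad7 (3.01 ± 0.190), Bmp6 (0.986 ± 0.0440), Id1 (0.660 ± 0.135) and Hamp (0.657 ± 0.418; SD, n = 3 each), with Hamp2 at 0. Of the neighbours in this order with counts, only Id1 and Hamp differed by less than their spread. Hamp in siScramble 1, at 1.10, also lay above every Bmp6 value, so Bmp6 and Hamp overlapped too. The order in siABHD6 cultures differed at the end, where Hamp (1.82 ± 0.714) and Id1 (1.49 ± 0.324) lay above Bmp6 (0.619 ± 0.114), and Hamp and Id1 again differed by less than their spread.

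**Figure D5:**
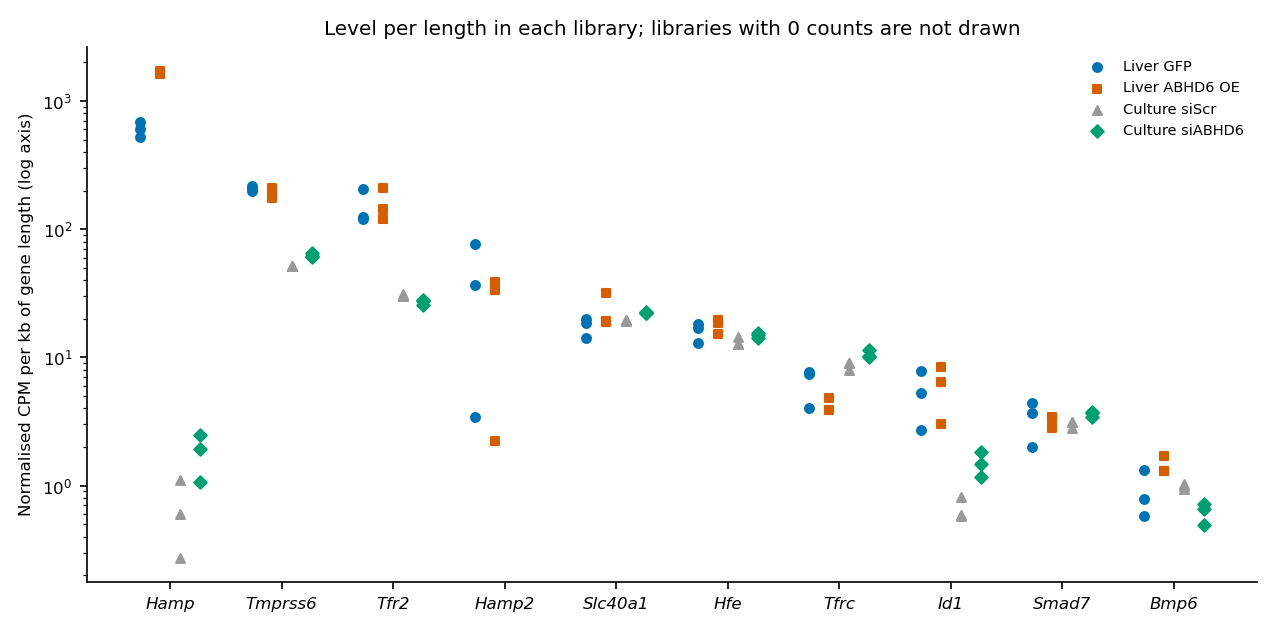
Normalised CPM per kilobase of gene length (log axis) of the 10 genes in each library, with libraries of 0 counts not drawn. Hamp was the most abundant of the set in all livers, at 607 and 1652 in the group means, and among the least abundant in cultures, while Slc40a1 was at 17.4 in GFP livers and 19.4 in siScramble cultures.

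The genes whose profile over the 12 libraries was most like that of Hamp were found by the root mean square difference of mean-centred log2 CPM among 10856 protein-coding genes. They were the Kupffer cell lectin gene Clec4f (difference 0.648), the urate oxidase gene Uox (0.689), the cytochrome P450 gene Cyp2d13 (0.689), the arginase gene Arg1 (0.721) and the inflammasome gene Nlrp6 (0.730). This likeness rests on the step between livers and cultures that all libraries share, and Clec4f is a gene of another cell type. Between the liver groups the mean levels of the 5 genes had ratios of 1.01 to 1.15, where that of Hamp was 2.72.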

How the data were processed

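Poly-A RNA from 6 mouse livers and 6 primary hepatocyte samples was sequenced. The authors deposited raw counts per gene and FPKM values for 56748 genes. HISAT2, DESeq2 and build mm39 are named, without versions, in the submitters' processing notes; the counting program, annotation release and strand setting are not given in the sources used here. The deposited FPKM of a library equal the count per gene length over a scaling number, which relative to total counts was 0.671 to 0.780 for livers and 1.25 to 1.27 for cultures; no test used them.

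Counts were fitted with edgeR 4.0.16 (R 4.3.3; filterByExpr by group, TMM, quasi-likelihood F test, Benjamini-Hochberg over all genes tested, called at an adjusted p under 0.05) on the 6 libraries of each comparison, and the steps were tested on simulated data. SE is the log2 fold change over the root of F. CPM of single genes use TMM factors over 12 libraries, which were 0.690 to 0.819 in livers and 1.30 to 1.32 in cultures. Summed CPM of the marker and acute-phase lists use library totals alone. Replicates differed by more than counting noise; the biological coefficient of variation was 4.93% in hepatocytes, 28.1% in livers and 21.4% between cultures and livers.

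The 10 genes, the 5 pathway lists and the 7 marker lists were chosen with earlier results of these data known. Named list genes were up to 4 called with the largest change in hepatocytes, up to 3 in cultures against livers, up to 2 with groups that did not overlap in livers, and the 5 genes most like Hamp whose log2 CPM averaged at least 1. The result of 1 gene that this rule gives is not reported here. Alternatives were RLE, no filter, DESeq2 1.42.0, limma-voom (limma 3.58.1), blocking by replicate number, a fit over all 12 libraries and leaving out each library. Sequences were searched with Python 3.11.15 and Biopython 1.88.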

Additional observations from a re-analysis of the deposited data

How the results depend on the processing

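The fit over all 12 libraries called 41 of 15244 genes and 0 of the 10 iron genes in hepatocytes, with directions kept. In livers, where edgeR called 0, DESeq2 called 10 genes, the fit over all 12 libraries 4, edgeR with no filter 2, and edgeR without both acute-phase livers, an alternative chosen after seeing the data, 1. In control cultures against control livers, library totals in place of TMM, also chosen after seeing the data, called 9 of the 10 genes instead of 5. Over all 14215 genes tested they called 11311 instead of 9991. They moved the share of higher among all calls from 47.4% to 74.2%, and reversed Hfe to 0.52 and Smad7 to 0.62 on the log2 scale. Neither gene was called with TMM. Leaving out single libraries gave 1468 to 1873 called genes and 4 to 6 called iron genes in hepatocytes, 0 called genes in livers, and 9127 to 11331 called genes and 5 to 7 called iron genes in cultures against livers. Of the latter differences, that of Bmp6 ran from -0.11 to 0.52 and that of Smad7 from -0.44 to 0.079 over the libraries left out.

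Equal replicate numbers were close to uncorrelated in hepatocytes (correlations of -0.000549 to 0.0184). In livers the correlations were -0.362, 0.357 and -0.114. Their signs were mixed, and the 2 acute-phase livers carry different numbers, so these values cannot settle whether livers were paired. No pairing was assumed. With the replicate number as a block, edgeR called 2124 genes in hepatocytes (1072 higher and 1052 lower), among them 6 of the iron genes, and 0 genes in livers, where 209 had an unadjusted p under 0.05. Depth limits Hamp in cultures, with 2 to 19 counts per library, and Id1, with 11 to 35.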
